A study of Mus musculus with 6 samples.

Results

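The genes described here are 10 regulators of epithelial identity, chosen by name: the ETS transcription factors Elf3, Elf5, Ehf and Spdef, the grainyhead-like transcription factors Grhl1, Grhl2 and Grhl3, the zinc finger repressor Ovol2, and the splicing regulators Esrp1 and Esrp2. They are 10 of the 20145 genes named on the array, and all 10 were among the 14856 genes tested. The choice was made with earlier results of these data known. RNA came from whole uteri at gestation day (GD) 3.5, counted from a mating plug at GD 0.5, of 3 Sox17f/f mice and 3 Sox17ed/ed mice, and each uterus was hybridized to 1 Agilent array read in 1 colour. Both genotypes carry the floxed Sox17 allele. The Sox17ed/ed mice (LtfiCre/+ Sox17f/f) also carry 1 copy of the iCre recombinase in the Ltf locus, active in uterine epithelial cells from puberty on and deleting Sox17 there, so stromal, muscle and vascular cells keep the gene, and the controls carry no recombinase. Females were mated at 8 to 10 weeks of age to males of proven fertility, and embryos were flushed from the horns before freezing.

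The deposited spot intensities were taken to log2 and quantile normalized between the 6 arrays, and a value below is such a normalized log2 signal unless stated otherwise. A level on 1 probe is not comparable with the level on another probe, so only differences between genotypes are set side by side. Differences are Sox17ed/ed minus Sox17f/f, with limma's standard error (SE), 95% confidence interval and Benjamini-Hochberg adjusted p over all genes tested. A gene was counted as changed at the thresholds in the study's methods, an unadjusted p under 0.01 and a fold change of at least 1.4. The Sox17 signal itself was 12.17 ± 0.09 (SD, n = 3) in Sox17f/f uteri and 9.72 ± 0.11 (SD, n = 3) in Sox17ed/ed uteri, a log2 difference of -2.45. On the Sox17f/f arrays 60.7% to 65.7% of spots were well above background, and on the Sox17ed/ed arrays 56.8% to 59.4%. All 6 arrays lay on 1 slide with each genotype in a line of its own, so position on the slide and genotype cannot be told apart. Defining markers of the tissue were measurable, with 6 of 6 for uterine epithelium, 10 of 10 for endometrial stroma and 8 of 8 for smooth muscle passing the filter on low signal.

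The 10 genes act at different levels of the same cell state. ETS factors bind short purine-rich sites through a conserved DNA-binding domain, and the epithelial members of the family differ in the cell types they specify, from mammary alveolar cells (Elf5) to goblet and other mucous cells (Spdef). Grainyhead-like factors activate genes of junctions and barriers, Ovol2 represses mesenchymal transcription factors such as Zeb1, and the Esrp proteins direct the epithelial pattern of alternative splicing in transcripts such as those of Fgfr2 and Cd44.

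RefSeq promoter windows of the GRCm38.p6 assembly, each 300 bases long from 250 bases before to 50 after an annotated start, were at hand for 6 of the 10 genes (8 windows). Those of the 3 genes with the largest differences are printed here 5′ to 3′, so that the letters under the strongest changes can be read. Grhl3 is the window chr4:135573583-135573882 on the minus strand, Elf5 is chr2:103411848-103412147 on the plus strand, and Spdef is chr17:27728902-27729201 on the minus strand. Capitals mark ACAAT, the core letters bound by SOX factors, and CAGGTG, the E-box form bound by Zeb and Snai factors, on either strand.
Grhl3: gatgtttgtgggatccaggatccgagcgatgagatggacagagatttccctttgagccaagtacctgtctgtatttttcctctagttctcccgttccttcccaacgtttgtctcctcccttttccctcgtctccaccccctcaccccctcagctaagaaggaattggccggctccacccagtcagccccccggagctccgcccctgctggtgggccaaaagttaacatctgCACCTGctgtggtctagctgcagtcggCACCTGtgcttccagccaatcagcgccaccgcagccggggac
Elf5: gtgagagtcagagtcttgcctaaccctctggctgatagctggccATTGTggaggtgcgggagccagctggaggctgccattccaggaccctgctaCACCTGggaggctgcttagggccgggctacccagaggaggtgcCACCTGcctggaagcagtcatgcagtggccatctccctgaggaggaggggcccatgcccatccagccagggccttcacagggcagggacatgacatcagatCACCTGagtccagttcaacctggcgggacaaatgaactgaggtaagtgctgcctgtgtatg
Spdef: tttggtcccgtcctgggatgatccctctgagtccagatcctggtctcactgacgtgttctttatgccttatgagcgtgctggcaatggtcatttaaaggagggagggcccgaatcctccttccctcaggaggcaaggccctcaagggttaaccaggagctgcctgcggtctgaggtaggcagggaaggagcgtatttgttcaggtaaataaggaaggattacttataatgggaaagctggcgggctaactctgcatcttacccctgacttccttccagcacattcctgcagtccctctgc

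The Grhl3 window holds CAGGTG on its minus strand 19 bases before and 8 bases after the start. The Elf5 window holds the same letters 155, 112 and 11 bases before the start, and the longer SOX form ACAATGG, which contains ACAAT, 208 bases before it. A further Elf5 start has a window at chr2:103423818-103424117, not printed, which holds CAGGTG 21 bases after the start and no ACAAT. The Spdef window holds none of the 6 motifs searched on both strands. Besides ACAAT and CAGGTG these were the longer SOX forms ACAATGG and ACAATAG, both overlapping ACAAT, the ETS letters CCGGAA and the grainyhead letters AACCNGTT. Over the 8 windows of the genes described, ACAAT was in 2, ACAATGG in 1, CAGGTG in 4, and each of the other motifs in 0. Over all 32851 windows of the same length, ACAAT was in 31%, ACAATGG in 3.66%, ACAATAG in 2.37%, CCGGAA in 14.9%, AACCNGTT in 2.09% and CAGGTG in 20.2%. The GC content of the printed windows was 58.3% for Grhl3, 60.7% for Elf5 and 53.3% for Spdef, against a median of 52.7%. These matches are letters in a window, and binding there was not measured on these arrays.

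Of the 10 regulators, 6 changed at the thresholds, against 12.5% of all genes tested. Elf5, Ehf, Grhl1 and Grhl3 rose, against 6.04% of genes that rose, and Spdef and Esrp2 fell, against 6.46% of genes that fell. The same 6 had an adjusted p under 0.05, as had 18.8% of all genes. For 8 of the 10 the values of the genotypes did not overlap, which held for 40.5% of all genes. Grhl3 passed the filter on low signal only through the Sox17ed/ed arrays, so its place in these counts rests on unresolved control values. An exact permutation test of 1 gene cannot go below p = 0.1 with 3 arrays against 3. The regulators and the lists below were chosen with earlier results of these data known. Their shares set against all genes are therefore no test of enrichment. In whole tissue, fewer cells of a type and less RNA per cell cannot be told apart, for these or any other genes below.

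**Figure D1:**
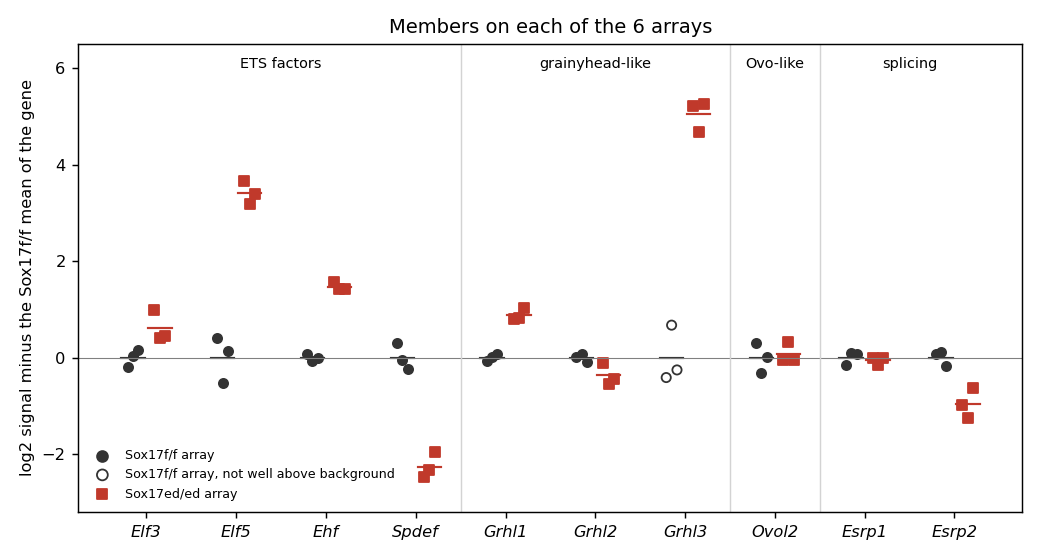
Normalized log2 signal of each regulator on each of the 6 arrays, minus the Sox17f/f mean of the same gene (y axis, log2 units), with genes along the x axis, circles for Sox17f/f arrays, squares for Sox17ed/ed arrays and short lines for the genotype means. Grhl3, Elf5 and Ehf lie above and Spdef and Esrp2 below on all 3 Sox17ed/ed arrays, Ovol2 and Esrp1 overlap, and the open circles of Grhl3 are values not well above background.

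Among the ETS factors, Elf5, a regulator of secretory and trophoblast cell fates, rose most. Its signal was 6.49, 5.57 and 6.22 on the Sox17f/f arrays and 9.75, 9.28 and 9.49 on the Sox17ed/ed arrays. The groups lay far apart, and every array was well above background. The difference was 3.41 (SE 0.25, 95% interval 2.80 to 4.02), or 10.7-fold (limma adjusted p = 0.000375), which placed Elf5 at rank 129 of the 14856 genes by size of change.

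Ehf, an epithelium-specific ETS factor, rose with little spread between mice. Its signal was 9.84, 9.71 and 9.77 on the Sox17f/f arrays and 11.33, 11.20 and 11.19 on the Sox17ed/ed arrays, which do not overlap. The difference was 1.47 (SE 0.07, 95% interval 1.29 to 1.64), or 2.76-fold (limma adjusted p = 8.6e-05). The other Ehf probe read 9.16, 9.03 and 8.87 against 10.58, 10.42 and 10.35, a difference of 1.43, so both probes of the gene gave nearly the same size.

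Spdef, the ETS factor of mucous secretory cells, moved the opposite way. Its signal was 8.92, 8.58 and 8.38 on the Sox17f/f arrays and 6.15, 6.29 and 6.67 on the Sox17ed/ed arrays, all 3 lower than any control. The difference was -2.26 (SE 0.19, 95% interval -2.71 to -1.81), so the Sox17f/f signal was 4.79 times the Sox17ed/ed signal (limma adjusted p = 0.000574).

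Elf3, an ETS factor of simple and stratified epithelia, did not pass the thresholds. Its signal was 7.59, 7.82 and 7.93 on the Sox17f/f arrays and 8.76, 8.18 and 8.24 on the Sox17ed/ed arrays. The Sox17ed/ed values were the higher in each case, with 1 array standing above the other 2. The difference was 0.61 (SE 0.18, 95% interval 0.18 to 1.04), 1.53-fold, with an adjusted p of 0.0614 by limma. Elf3 passed with a normexp background correction (0.54), an intensity trend in limma or a stricter filter on dim probes, so its call rests on the processing.

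Other ETS genes were read from a list of 11. Of these relatives (Elf1, Elf2, Elf4, Ets1, Ets2, Etv4, Etv5, Etv6, Erf, Elk3 and Gabpa), 0 rose and 1 fell (9.09%, against 12.5% of all genes), with a median difference of -0.26 against -0.0016 over all genes. The gene that fell was Etv5, which acts downstream of fibroblast growth factor signalling, at -0.87 (SE 0.11, limma adjusted p = 0.00387). With 1 array left out, between 1 and 3 of the 11 passed the thresholds, and 5 of the 11 had a limma adjusted p under 0.05 with no fold threshold, against 18.8% of all genes. At an unadjusted limma p under 0.05, 7 were lower and 0 higher, against 17.5% and 16.3% of all genes.

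Among the grainyhead-like genes, Grhl3, known from epidermal barrier formation and wound closure, was at the edge of detection in controls. Its signal was 1.84, 2.93 and 2.0 on the Sox17f/f arrays, none of them well above background, and 7.47, 6.94 and 7.52 on the Sox17ed/ed arrays, all well above it. A control level below background gives only a bound, taken against the higher of the probe's own signal and the lowest signal well above background on each array. The lowest such signal of any probe was used, so here and below a higher floor would give a smaller bound. By that bound Grhl3 was at least 12.9-fold higher in Sox17ed/ed uteri (limma adjusted p of the measured values = 0.000197), and with any 1 Sox17ed/ed array left out the bound was 12.0 to 14.7. Grhl3 passed the filter on low signal only through the Sox17ed/ed arrays, so that p rests on control values not resolved from background. With normexp, which adds an offset to every spot, the difference was 1.78 on the log2 scale, below that bound, so the bound holds for the processed signal only.

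Grhl1, a close relative expressed in skin and other epithelia, rose by less. Its signal was 6.32, 6.39 and 6.45 on the Sox17f/f arrays and 7.19, 7.21 and 7.42 on the Sox17ed/ed arrays, with no overlap. The difference was 0.89 (SE 0.09, 95% interval 0.68 to 1.1), or 1.85-fold (limma adjusted p = 0.00121).

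Grhl2, which maintains junction genes in simple epithelia, leaned the other way without passing. Its signal was 9.59, 9.65 and 9.49 on the Sox17f/f arrays and 9.46, 9.02 and 9.14 on the Sox17ed/ed arrays, and the nearest arrays of the genotypes were close to touching. The difference was -0.37 (SE 0.12, 95% interval -0.67 to -0.07, limma adjusted p = 0.0913). Without Sox17ed/ed replicate 1, the highest of its group, the difference was -0.50 and passed the thresholds (adjusted p = 0.0262). The dimmer Grhl2 probe gave -0.29 (adjusted p = 0.291). The intervals of Grhl1 and Grhl2 do not overlap, but the difference between their changes was not tested.

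Of the 4 other genes of the grainyhead and Ovol families with a tested probe, 0 changed by limma, against 12.5% of all genes, with a median of -0.02. At an unadjusted p under 0.05 there was 1 in each direction, against 16.3% of all genes higher and 17.5% lower. Without Sox17f/f replicate 3, 1 passed the thresholds. The largest differences were -0.41 for Tfcp2l1, a grainyhead-related factor of ducts and glands, and -0.34 for Ubp1.

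Ovol2, the repressor of mesenchymal transcription factors, showed no difference beyond the spread between mice. Its signal was 11.11, 10.49 and 10.81 on the Sox17f/f arrays and 10.75, 11.13 and 10.75 on the Sox17ed/ed arrays, which overlap. The difference was 0.07 (SE 0.19, 95% interval -0.38 to 0.52, limma adjusted p = 0.827). Its sign turned when 1 array was left out, to -0.085 without Sox17f/f replicate 2 and to -0.058 without Sox17ed/ed replicate 2.

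The transcription factors that drive the mesenchymal state, of which Zeb1 is the best known target of Ovol2, were described by 7 tested genes. Of these 0 rose and 1 fell (14.3%, against 12.5% of all genes), and the median difference was -0.04. Snai1, a zinc finger repressor of Cdh1, fell by 1.06 on the log2 scale (SE 0.11, limma adjusted p = 0.00130). Zeb1 differed by 0.01 (SE 0.07) and Zeb2 by -0.04 (SE 0.07). Stroma makes up much of the tissue and expresses these genes, so their epithelial level was not measured here.

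The splicing regulators parted from each other. Esrp2 fell, from 8.30, 8.35 and 8.04 on the Sox17f/f arrays to 7.24, 6.97 and 7.59 on the Sox17ed/ed arrays, with no overlap. The difference was -0.96 (SE 0.17, 95% interval -1.38 to -0.54), and the Sox17f/f signal was 1.95 times the Sox17ed/ed signal (limma adjusted p = 0.0130). With the replicate number as a block Esrp2 still passed the thresholds, with an adjusted p of 0.0525.

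Esrp1, its paralog with largely shared targets, read 8.71, 8.97 and 8.95 on the Sox17f/f arrays and 8.87, 8.72 and 8.86 on the Sox17ed/ed arrays. The groups overlap, and the difference was -0.06 (SE 0.09, 95% interval -0.29 to 0.17, limma adjusted p = 0.710). A dimmer probe of Esrp1 gave 0.048. The interval of Esrp1 lies wholly above that of Esrp2, although the difference between the paralogs was not itself tested.

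Genes whose transcripts are spliced by Esrp proteins were looked at probe by probe, since a change of exon use can move 1 probe of a gene and not another. Grhl1 is itself such a gene and is left aside here. The other 13 genes had 22 tested probes, of which 0 changed at the thresholds by limma, against 11.8% of all probes. An unadjusted limma p under 0.05 was found for 7 of the 22 probes. Of these the Ralgps2 probe was higher, and the rest, probes of Cd44, Nf2 and Enah, were lower. Over genes rather than probes, 16.3% were higher and 17.5% lower at that p. The differences lay between -0.62 and 0.19. Cd44, whose variable exons are kept in epithelia, differed by -0.52 to -0.19 over 4 probes. Fgfr2, whose epithelial form binds a different set of ligands, differed by 0.06 and 0.17 on its probes. Which exons these probes cover was not determined, so exon use was not measured. Among 10 other RNA-binding regulators of splicing, 0 rose and 1 fell (10%, against 12.5% of all genes), with a median of -0.01. That gene was Rbm47, an RNA-binding protein of epithelial cells, at -0.58 (SE 0.13, limma adjusted p = 0.0255), and 0 of the 10 passed without Sox17f/f replicate 1 or 2 or without Sox17ed/ed replicate 2 or 3.

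Because the regulators are made by epithelial cells within a whole uterus, general epithelial markers were read on the same arrays. Of 6 markers, 4 rose, against 6.04% of all genes, with a median difference of 0.64. Krt19 rose by 2.10 (SE 0.13), Krt7 by 1.46 (SE 0.21), Krt8 by 0.69 (SE 0.17) and Cdh1 by 0.59 (SE 0.10), all keratins or junction proteins of simple epithelium. Epcam differed by 0.10 and Krt18 by -0.16. The summed signal of the 6 markers was 35515 to 37887 on the Sox17f/f arrays and 45625 to 57102 on the Sox17ed/ed arrays. That sum adds unlike probes and gives the brightest the most weight, so it is no measure of the amount of epithelium. The brightest were Krt18 (mean 14.70 in Sox17f/f, 14.54 in Sox17ed/ed) and Krt19 (12.02 and 14.12). Stromal markers showed 0 of 10 changed by limma, against 12.5% of all genes, with a median of 0.03. At an unadjusted p under 0.05 there were 4 higher and 1 lower, against 16.3% and 17.5% of all genes. Smooth muscle markers showed 1 of 8 lower (Actg2, -0.64) and endothelial markers 1 of 7 lower (Esam, -0.57), against 6.46% of all genes. The medians were -0.28 and -0.36. At an unadjusted p under 0.05, 5 of the 8 and 5 of the 7 were lower and 0 higher, against 17.5% and 16.3% of all genes. The part of these shifts in the changes of the regulators was not tested beyond the comparison that follows.

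Each gene was therefore also compared after subtracting the mean log2 signal of the 6 epithelial markers on the same array. This moves the median of all genes to -0.80 and puts 80.8% of them past the thresholds, 1.8% higher and 79% lower, so a lower value on this scale is near the background. The marker mean of an array is taken from every gene, so its error is shared by all genes. Limma pools the variances of genes as if they were independent. Its p-values and intervals relative to markers, here and in the next paragraph, are therefore not reliable and serve as a description only. Elf5 stayed higher at 2.62, Grhl3 at a measured 4.26 and Ehf at 0.67 (limma adjusted p = 0.00291). Ehf narrowly missed the thresholds on this scale without Sox17f/f replicate 2, at 0.58 (adjusted p = 0.0127), and with the replicate number as a block (adjusted p = 0.0151). Grhl1 came to 0.09 (adjusted p = 0.604) and Elf3 to -0.18 (adjusted p = 0.346), so neither differed from the marker mean beyond its spread. Ovol2 came to -0.72 (adjusted p = 0.0138, not past the unadjusted threshold) and passed without Sox17f/f replicate 2 (-0.94) or 3 (-0.68) or Sox17ed/ed replicate 2 (-0.97), as it did with normexp (-0.66), with an intensity trend, with all 6 arrays required to be bright and with the replicate block (adjusted p = 0.00921). Spdef, Grhl2, Esrp1 and Esrp2 were lower. Spdef was the lowest of the 10 at -3.06. On the same scale Esrp2 was at -1.76, Grhl2 at -1.17 and Esrp1 at -0.85.

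The choice of markers moved several of these values. Relative to Cdh1 and Epcam alone, with 26.7% of all genes past the thresholds, Grhl1 was higher by 0.55 (limma adjusted p = 0.0171), Elf3 turned to 0.27 (adjusted p = 0.224), Ovol2 came to -0.27 (adjusted p = 0.340), and Esrp1 at -0.40 no longer passed. Elf5 (3.07), Grhl3 (4.71, measured) and Ehf (1.12) remained higher and Spdef (-2.60), Esrp2 (-1.31) and Grhl2 (-0.71) remained lower.

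**Figure D2:**
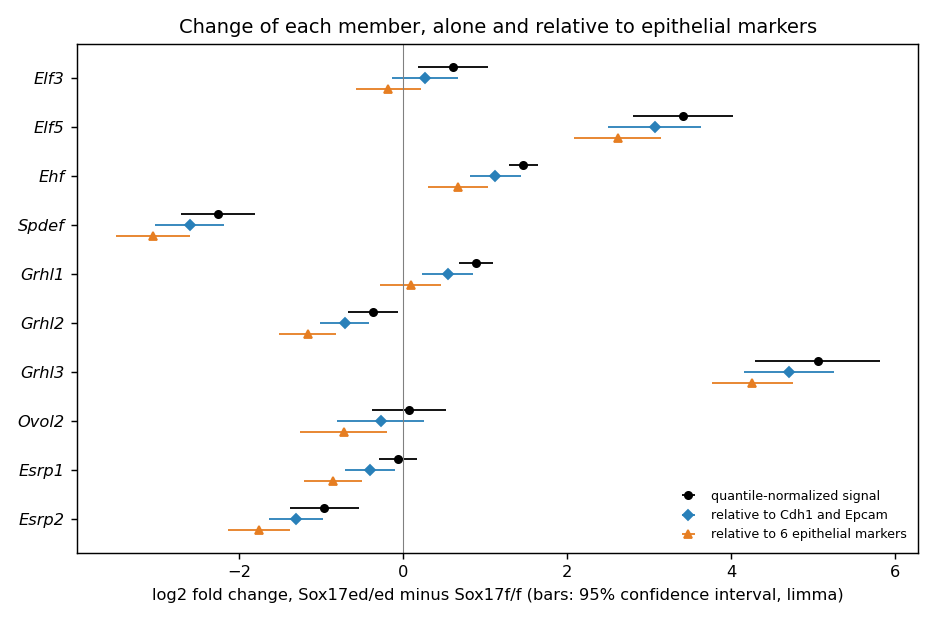
Log2 fold change of each regulator (x axis, Sox17ed/ed minus Sox17f/f, n = 3 arrays each) with 95% confidence intervals from limma, as measured (black), relative to Cdh1 and Epcam (blue) and relative to the mean of 6 epithelial markers (orange). Elf5, Grhl3 and Ehf stay above 0 and Spdef and Esrp2 below 0 on all 3 scales, Grhl1 and Elf3 come close to 0 relative to the 6 markers, and the Grhl3 values rest on control signals that were not well above background. Intervals relative to markers do not allow for the error of the marker mean that all genes share.

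Genes of junctions and cell polarity, many of them regulated by grainyhead-like factors, moved in both directions. Of 22 tested, 7 rose and 3 fell (45.5%, against 12.5% of all genes), with a median of 0.21. Macc1, known from Met signalling, rose by 1.75 (SE 0.13, limma adjusted p = 0.000443). Claudins made up the falls, with -1.81 (SE 0.13) for Cldn23, -1.16 (SE 0.08) for Cldn3 and -0.71 (SE 0.12) for Cldn7. Smaller rises were those of Tjp3 (1.32), Dsp (0.92), F11r (0.83), Marveld3 (0.51) and Rab25 (0.51), which serve tight junctions, desmosomes and apical trafficking. At a fold threshold of 2, 5 of the genes passed.

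Membrane-anchored serine proteases and their inhibitors, which act at epithelial surfaces, showed 3 of 8 higher and 0 lower (37.5%, against 12.5% of all genes), with a median of 0.31. At an unadjusted limma p under 0.05, 5 were higher and 0 lower, against 16.3% and 17.5% of all genes. Tmprss13 rose by 2.71 (SE 0.32), from 5.28 ± 0.67 to 7.99 ± 0.09 (SD, n = 3). Tmprss4 rose by 1.54 (SE 0.10), and Hpn, the protease hepsin, by 1.53 (SE 0.11). The matriptase gene St14, at 0.01, and its partner Prss8, at 0.27, did not pass the thresholds.

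Spdef is known for mucous secretory programs, and 16 secretory genes linked to it were listed. Of 11 tested, 3 rose and 2 fell (45.5%, against 12.5% of all genes), with a median of -0.03. Agr2, a protein disulfide isomerase of mucin-secreting cells, differed by -0.50 (SE 0.09, limma adjusted p = 0.0138) and Creb3l4 by -0.54 (SE 0.11, adjusted p = 0.0194), in the same direction as Spdef. Fcgbp, a mucus protein, rose from 9.87 ± 0.16 to 13.83 ± 0.14 (SD, n = 3), a difference of 3.96 (SE 0.11). Clca1, a secreted mucus protein, was at 3.37 ± 0.84 in Sox17f/f uteri, where 1 of 3 arrays was well above background, and at 14.31 ± 0.33 in Sox17ed/ed uteri. Muc5b, a gel-forming mucin, rose by 2.57 (SE 0.39). The probes of Foxa3, Muc2, Tff1, Tff2 and Tff3 were too dim to test.

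Squamous barrier genes, the setting in which Grhl3 and Grhl1 are best known, were dim or undetected for many members. Of 21 genes 13 were tested, 4 rose and 1 fell (38.5%, against 12.5% of all genes), with a median of 0.30, and the count ranged from 2 to 7 over the alternatives tried. Without Sox17f/f replicate 3, or with any 1 Sox17ed/ed array left out, 3 passed. Perp and Evpl, desmosomal and cornified envelope proteins, rose by 0.92 (SE 0.16) and 0.82 (SE 0.12). Tgm5 rose by 1.74 (SE 0.41), while Tgm1, the main epidermal transglutaminase, fell by 1.13 on the log2 scale (SE 0.07). The basal keratin Krt5 was not well above background on any Sox17f/f array and read 7.80, 4.94 and 5.33 on the Sox17ed/ed arrays, at least 5.25-fold higher (limma adjusted p of the measured values = 0.0447), with 1 array well above the other 2. Without that array, Sox17ed/ed replicate 1, the bound was 2.83-fold. Krt5 too passed the filter only through the Sox17ed/ed arrays, so its p rests on control values not resolved from background. Of the markers of stratified squamous epithelium, Trp63 differed by -0.12, Krt13 by 0.06 and Krt14 by 0.30. Krt6a, Dsg3 and Krtdap were too dim to test. The Trp63 probe was bright in both genotypes, with a mean of 11.38 in Sox17f/f uteri and 11.26 in Sox17ed/ed uteri. The paper reports higher Trp63 mRNA in Sox17ed/ed than in Sox17f/f uteri by qRT-PCR, which this probe did not show. Whether the probe measures the same transcripts was not tested.

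Among other transcription factors of epithelia, falls outnumbered rises. Of 8 tested, 1 rose and 4 fell (62.5%, against 12.5% of all genes), with a median of -0.38. Tfap2c, an AP-2 factor of trophoblast and epidermis, rose by 1.29 (SE 0.14). Pax8, a factor of Müllerian duct epithelium, fell by 0.91 on the log2 scale (SE 0.18, limma adjusted p = 0.0182). Sox9, at -0.70 (SE 0.10), also fell, and Klf5, at -0.08, did not pass.

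**Figure D3:**
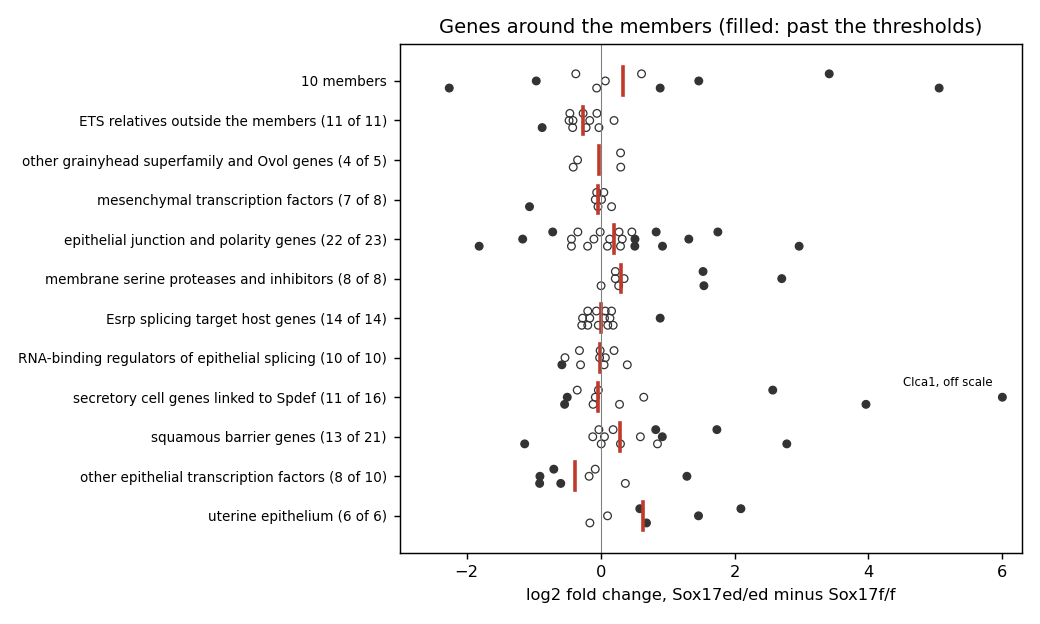
Log2 fold change (x axis, Sox17ed/ed minus Sox17f/f) of every tested gene of each list (rows, with the number tested of the number listed), filled where the gene passed the thresholds, with a bar at the median of the list. The 10 regulators spread from -2.26 to a measured 5.06, the ETS relatives and other epithelial transcription factors sit mostly below 0, and Clca1 lies beyond the axis.

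Markers of ciliated epithelium, mesothelium, pancreas, fat and ovary were also read, since these cells could be in a dissected uterus. Foxj1, which drives ciliogenesis, was at 3.69 ± 0.71 in Sox17f/f uteri, where 1 of 3 arrays was well above background. In Sox17ed/ed uteri Foxj1 was at 6.12 ± 0.23 (SD, n = 3). Dnah5, an axonemal dynein, fell by 2.82 on the log2 scale (SE 0.53), with 1 of 3 Sox17ed/ed arrays well above background. Of the 5 tested ciliated markers 1 rose and 1 fell (40%, against 12.5% of all genes). At an unadjusted limma p under 0.05, 3 were higher and 1 lower, against 16.3% and 17.5% of all genes. Of 5 mesothelial markers Upk3b rose by 1.56 and Lrrn4 was at least 1.86-fold lower (40% changed, against 12.5% of all genes). Pancreatic markers were near background for 4 of 8, and Cpa1 (-1.23) and Cel (-0.52) fell (50% of those tested, against 12.5% of all genes changed). Of the adipocyte markers and the ovary markers 2 each were bright enough to test, and 0 changed by limma, against 12.5% of all genes. At an unadjusted p under 0.05, 1 adipocyte marker was lower, against 17.5% of all genes. Of 6 leukocyte markers 0 changed by limma, against 12.5% of all genes, and 1 was higher at an unadjusted p under 0.05, against 16.3% of all genes. With so few genes in these lists, a count of 0 is near the share of all genes.

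The genes whose 6 values lay nearest to those of a regulator were found by the root mean square distance of normalized log2 signals, each gene centred on its own Sox17f/f mean. Nearest to Grhl3 were the transmembrane protein gene Tmem45b (distance 0.35, difference 5.09), Wfdc16 (distance 0.41, also not well above background on any Sox17f/f array) and Lgi3 (distance 0.45, difference 4.91). These distances rest on a Grhl3 mean in Sox17f/f that was not resolved from background, and with normexp the Grhl3 difference was 1.78. Nearest to Elf5 were Mia (distance 0.19, difference 3.32), Adgrg7 (distance 0.22, difference 3.60) and the carboxypeptidase gene Cpm (distance 0.23, difference 3.33). Nearest to Spdef were the keratin gene Krt23 (distance 0.13, difference -2.34), Itih3 (distance 0.16, difference -2.43) and the zinc finger factor gene Egr2 (distance 0.18, difference -2.19). With 6 arrays in 2 groups, such likeness is mostly a likeness of the difference between genotypes.

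On the chromosome, Ehf and Elf5 are next to each other on chromosome 2 among the genes tested, and both rose. The genes around the pair did not pass the thresholds. On the Ehf side Apip differed by 0.03 (SE 0.07) and Pdhx by -0.05 (SE 0.08), and on the Elf5 side Cat, the catalase gene, differed by 0.44 (SE 0.10, limma adjusted p = 0.0257) and Abtb2 by -0.44 (SE 0.19). Around Grhl3 on chromosome 4, Nipal3 (-0.09) and Ifnlr1 (-0.02) flank the gene. Beyond them Rcan3 differed by 0.10 and Myom3, a gene of muscle, by 2.27 (SE 0.76, limma adjusted p = 0.0908). Around Spdef on chromosome 17, Pacsin1 (0.06) and Ilrun (-0.03) do. In all, 3 of the 36 tested neighbours within 2 places of a regulator changed, against 12.5% of all genes. They were Rnpep near Elf3 (0.70), Rad54b near Esrp1 (0.59) and Ncald near Grhl2 (-1.13).

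**Figure D4:**
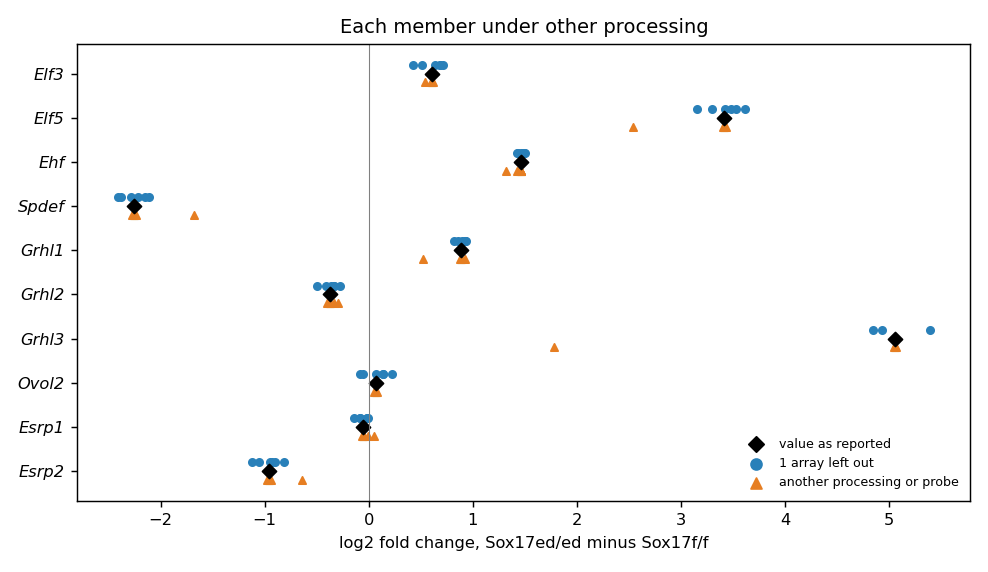
Log2 fold change of each regulator (x axis, Sox17ed/ed minus Sox17f/f) as reported (diamonds), with each array left out in turn (circles) and with other processing or the other probe (triangles). Signs hold for 8 of the 10 genes, Ovol2 and Esrp1 lie around 0, and the normexp correction gives the lowest sizes for Grhl3 (1.78), Elf5 (2.54), Spdef (-1.68) and Grhl1 (0.52).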

How the data were processed

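Groups follow the genotype in the labels. The authors deposited Feature Extraction 11.0.1.1 output for each array (version per the file headers), and its processed spot intensity, background-subtracted and detrended with no normalization between arrays, was used. Subtraction makes values near background uncertain, hence the bounds. Control spots and 169 to 302 outlier spots per array were left out, log2 values were quantile normalized as in the study's methods, spots were averaged per probe, and a probe was kept if well above background on 3 or more of the 6 arrays. Of 55681 probes, 26582 were named through a GRCm38.p6 gene table (the design is annotated on mm9), and the brightest probe stood for a gene. Genes were fitted with limma 3.58.1 in R 4.3.3. On simulated arrays the steps recovered 188 of 200 changed genes among 14763 (90 of 100 at 2-fold, 98 of 100 at 4-fold), with 45 unchanged genes called. The simulation used independent normal noise, fewer changed genes than were called here and no slide position, so its rates need not hold for these data. The number of arrays limits the precision.

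The regulators and lists were chosen with earlier results of these data known. Named genes are the regulators, the called list genes with the 2 largest changes in each direction (else the 2 largest changes), called markers, and the 3 nearest patterns of the 3 regulators that changed most. Further list genes and neighbours were named with their values seen, and a few list genes are counted but not reported here. Alternatives were a 75th percentile shift, normexp, other filters, probe averages, an intensity trend, the deposited processed table, a replicate block, other thresholds or markers, and leaving out each array.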

Additional observations from a re-analysis of the deposited data

How the results depend on the processing

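Of the values and counts that answer the main comparison, 162 recomputed under an alternative kept their direction and their side of the thresholds, or for counts stayed within 1.5 times. Of the rest, 4 came to pass the thresholds, 3 changed sign and 2 counts moved further. Among values relative to the epithelial markers and counts of the lists, 263 kept theirs. There 30 counts moved further, 8 values came to pass, 3 no longer passed and 2 changed sign. Settings in which a gene was not tested are not counted. Elf3 passed the thresholds with normexp (0.54), where all 6 arrays had to be bright (0.61) and with an intensity trend (0.61), and its difference with 1 array left out was 0.43 to 0.72. Grhl2 passed without Sox17ed/ed replicate 1, and lay between -0.50 and -0.28 with 1 array left out. Ovol2 turned to -0.085 without Sox17f/f replicate 2 and to -0.058 without Sox17ed/ed replicate 2 (range -0.085 to 0.22), and the other Esrp1 probe gave 0.048. The count of all genes past the thresholds was 1858, with 2799 at an adjusted p under 0.05 alone and 819 at a fold threshold of 2, and 1585 to 1947 with 1 array left out. The number of regulators past the thresholds was 6 in most settings, 7 with normexp or a trend, 4 at a fold threshold of 2, and 5 without Sox17ed/ed replicate 2 or 3. The 6 were not always the same genes. Elf3 stood in for an untested Grhl3 where all 6 arrays had to be bright, and Grhl2 did without Sox17ed/ed replicate 1. The counts of 5 also lack Grhl3, which was not tested there. Relative to the 6 markers, Grhl1 turned to -0.21 with normexp and Elf3 to 0.27 with Cdh1 and Epcam alone. Normexp, run on the median spot signal since the files hold no mean signal, was chosen after seeing the files, and lowered Grhl3 to 1.78, Grhl1 to 0.52 and Esrp2 to -0.64. Grhl3 was not tested where all 6 arrays had to be well above background, or with any Sox17ed/ed array left out, since too few arrays were then well above background. Same-numbered arrays did not deviate together (correlations 0.06, -0.11 and -0.00). With 3 arrays per genotype this cannot tell whether the numbers pair mice in some other way. The replicate block kept 6 regulators past the thresholds and 1796 genes in all, and moved Esrp2 to a limma adjusted p of 0.0525. Dim probes left 7 squamous and 5 secretory genes untested. Causes of these shifts were not tested.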
